A study of Homo sapiens with 11 samples.

Results

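CTCF binding was described at 46 genes of epithelial and mesenchymal identity, chosen by name: 8 cadherins, 2 catenins, 5 tight junction genes, 3 epithelial regulators, 6 transcription factors of the epithelial-mesenchymal transition (EMT), 4 cytoskeletal or surface genes, 8 collagens, 5 other matrix genes, 3 matrix enzymes and 2 integrins. They are 46 of the 19974 protein-coding genes that RefSeq places on chromosomes 1 to 22 and X. A CTCF summit, the base at the top of a called peak, counted for a gene when it lay in the gene body or within 10 kb of it.

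The summits come from CUT&RUN, an assay that cuts out and sequences the DNA beside an antibody-bound protein, in HCT116 p53-/- cells, a human colorectal carcinoma line. The 3 genotypes were ORC2 deletion, a CRISPR/Cas9 clone, ORC2 rescue, cells given ORC2 back on a plasmid and cloned, and WT, the parental cells. All 3 lacked p53, and "WT" refers to ORC2. ORC2 is a subunit of the origin recognition complex, which marks replication origins.

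Each genotype had 2 CTCF libraries. The IgG background had 2 libraries in ORC2 deletion, 1 in rescue and 2 in WT. The deposited CTCF summits come as 1 list per genotype that names no replicate, which leaves the spread between replicates unknown, and no difference below was tested. The depth of the libraries is unknown. Whole lists held 31112 summits in ORC2 deletion, 20810 in rescue and 19044 in WT. Of the IgG summits, 0 of 34 in ORC2 deletion, 0 of 33 in rescue and 0 of 17 in WT lay near the 46 genes. The lists give peaks and no expression, so neither the loss of ORC2 nor the epithelial state of the cells can be checked from them.

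Epithelial cells hold to their neighbours through E-cadherin, which catenins tie to the actin skeleton, and through tight junctions built of claudins and occludin. In EMT, factors of the SNAI, ZEB and TWIST families repress the E-cadherin gene, and cells take on N-cadherin, vimentin and a collagen-rich matrix. CTCF is a zinc finger protein that binds a long DNA motif and, with cohesin, holds the bases of chromatin loops.

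Near the 46 genes lay 72 summits in ORC2 deletion (95% Poisson interval 56.3 to 90.7), 43 in rescue (31.1 to 57.9) and 42 in WT (30.3 to 56.8). These intervals, like all below, cover counting error only. The deletion count was 1.71 times the WT count (exact binomial interval 1.16 to 2.57) and 1.67 times the rescue count (1.13 to 2.50). Rescue over WT was 1.02 (0.653 to 1.61). Over the whole lists deletion over WT was 1.63, deletion over rescue 1.5 and rescue over WT 1.09, and each lies inside the interval of the 46 genes. When every list was cut to its 19044 highest values, the length of the WT list, deletion over WT near the 46 genes was 1.10 (0.705 to 1.71). The cut makes the whole lists equally long, so it removes their ratio of 1.63 by construction.

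A summit was found in any list for 33 of the 46 genes, against 67.1% of all protein-coding genes, and 13 genes had none. In ORC2 deletion 32 genes had a summit, where 63.7% of all protein-coding genes did. In rescue it was 26 genes (52.0% of all genes) and in WT 24 genes (50.4% of all genes). The deletion list had more summits than the WT list at 21 genes (37.6% of all genes), as many at 24 (58.2%), 13 of them with 0 in every list and 1 more with a rescue summit only, and fewer at 1, CDH1 (4.27%).

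**Figure D1:**
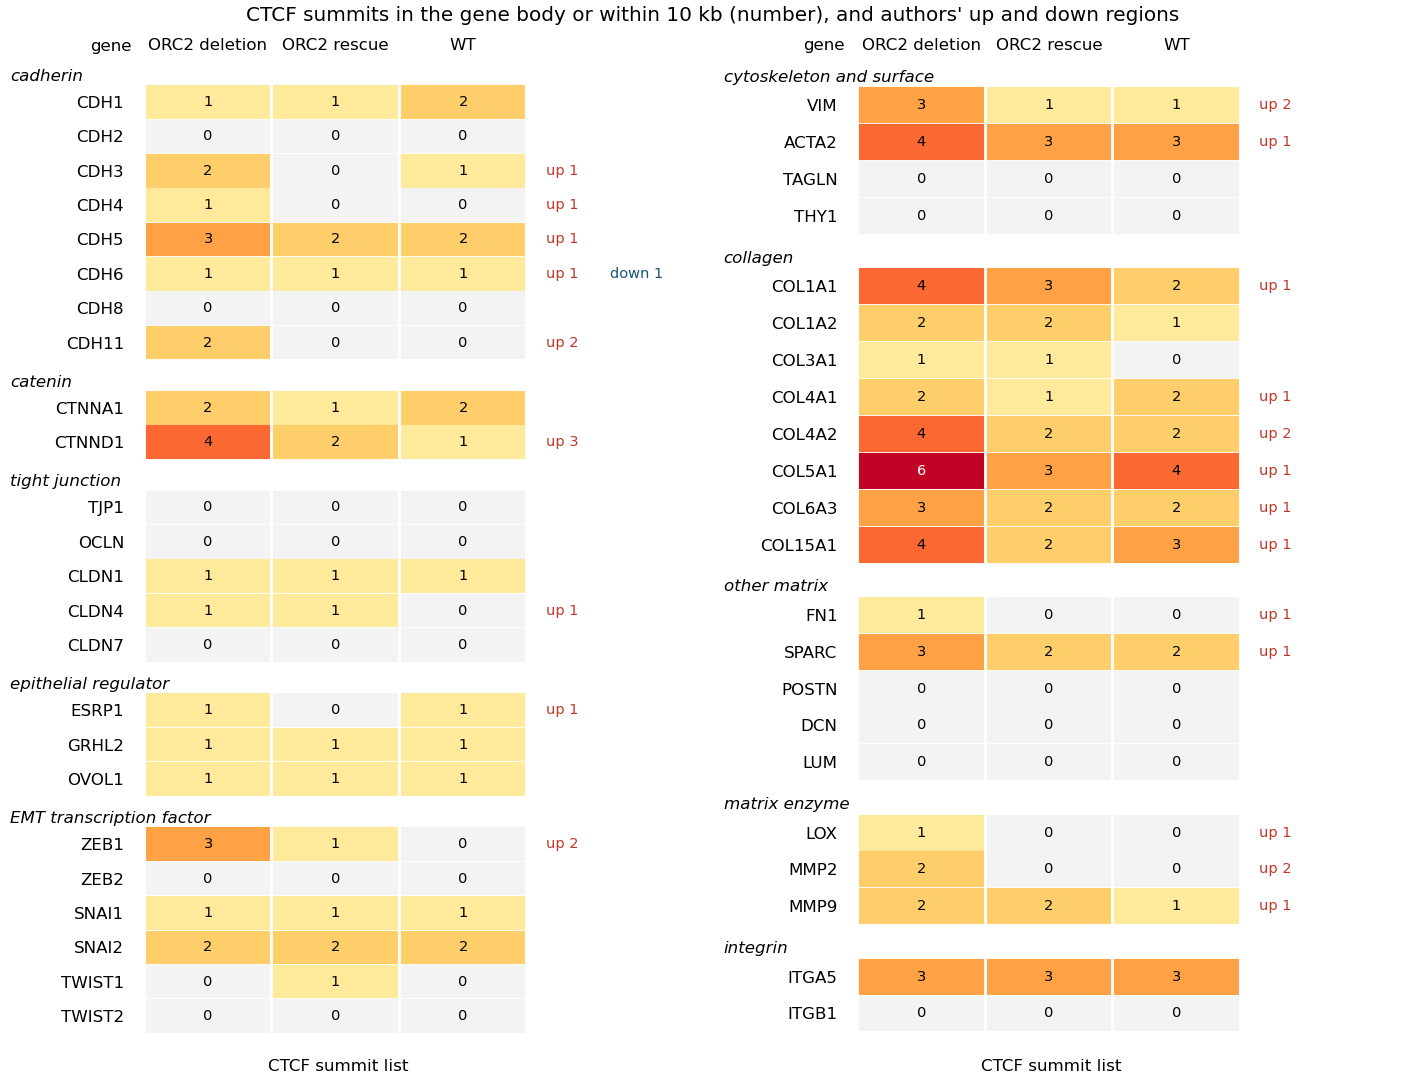
Number of CTCF summits in the gene body or within 10 kb, for each of the 46 genes (rows, by role) in the ORC2 deletion, rescue and WT lists (columns), with the number of regions in the authors' deposited up and down lists beside them. COL5A1 has the highest count, 6 in deletion, 3 in rescue and 4 in WT, and CDH6 is the gene with a down region.

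Summits of the 3 lists within 500 bp of each other were joined, which gave 79 sites near the 46 genes, each belonging to 1 gene. All 3 lists had a summit at 32 of these sites, 40.5% (Wilson interval 30.4 to 51.5), close to the 40.6% over all 34769 sites. A deletion summit alone marked 28 sites, 35.4% (25.8 to 46.4), against 27.3% of all sites, whose share lies inside that interval. Deletion and rescue without WT shared 6 sites, 7.59% (13.0% of all sites), and deletion and WT without rescue 6, 7.59% (8.43%). Rescue and WT without deletion shared 2, 2.53% (1.18% of all sites). Rescue alone had 3 sites, 3.80% (5.00%), and WT alone had 2, 2.53% (4.49%). Each of these shares over all sites lies inside the interval of the 46 genes.

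By gene, 24 of the 46 had at least 1 deletion summit with no WT summit within 500 bp (40.0% of all protein-coding genes), and 4 had a WT summit with no deletion summit (8.20% of all genes). At equal list lengths the first count was 10 genes, against 17.2% of all genes, and all 10 were among the 24: CDH3, CDH4, CDH11, ZEB1, VIM, COL1A1, COL4A2, COL6A3, COL15A1 and MMP9. In the authors' deposited lists, 22 genes had an up region (30.7% of all genes) and 1 had a down region (1.72% of all genes). All 28 deletion-only sites are in the up list, together with 1 site near MMP9 that also has a rescue summit. The 500 bp distance was chosen because earlier work on these lists found nearly all deletion-only summits in the up list at it. This overlap was therefore set by that choice and is no independent support.

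Between deletion and rescue, 23 genes had a deletion summit absent from rescue (37.8% of all genes) and 5 had a rescue summit absent from deletion (8.87%). Between rescue and WT, 9 genes had a rescue summit absent from WT (22.4% of all genes) and 7 a WT summit absent from rescue (17.6%). Each list serves in 2 of these 3 comparisons, so they are not independent of each other. The shares of the 46 genes that had a call must be read with their length, a median of 57001 bp against 24170 bp for all protein-coding genes. Per Mb of gene and flanks, the deletion list had 13.6 summits near the 46 genes and 14.4 near all protein-coding genes. The rescue list had 8.09 near the 46 genes and 9.63 near all, and the WT list 7.91 near the 46 genes and 8.79 near all. Up regions near the 46 genes numbered 29, or 5.46 per Mb, against 4.41 per Mb near all protein-coding genes, and no interval was computed for this density.

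**Figure D2:**
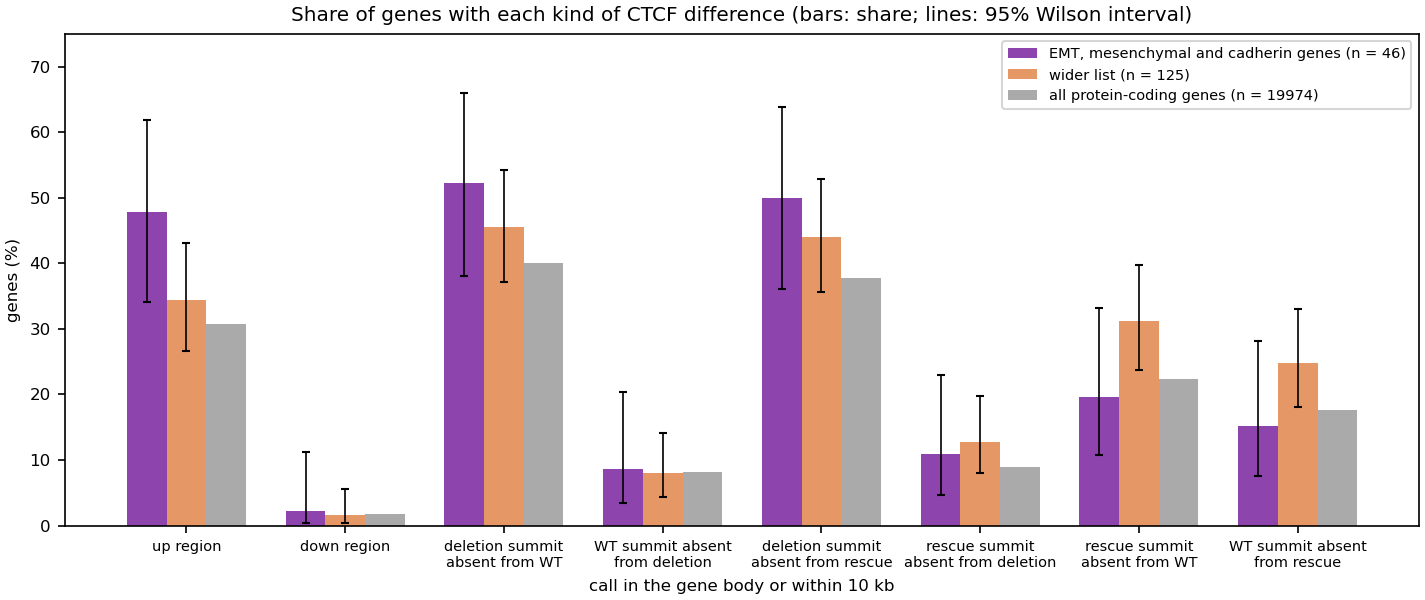
Share of genes (percent, y axis) with each kind of call in the gene body or within 10 kb (x axis), for the 46 genes, a wider list of 125 related genes and all 19974 protein-coding genes, with 95% Wilson intervals. For up regions the 46 genes stand at 47.8% with an interval of 34.1 to 61.9, above the 30.7% of all genes. For the other calls the share of all genes lies inside the interval of the 46. The shares are not adjusted for gene length, a median of 57001 bp for the 46 genes and 24170 bp for all.

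Positions below are on hg38, and the value of a summit is read as the −log10 of its q from the peak caller. No header states this reading. Values are not scaled between lists, so each is given with its place in its own list, as the percent of that list's summits with a lower value. Whether a summit missing from a list lies just under the calling threshold cannot be seen from the lists.

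Among the cadherins, E-cadherin (CDH1, chromosome 16, 68737292 to 68835537) was the gene with fewer deletion than WT summits. ORC2 deletion had 1 summit inside the gene at 68800559, with a value of 12.8 (72.4% of its list lower). Rescue had 1 at 68801088, with 9.43 (70.2% lower), and WT had 2, at 68800580 with 4.25 (28.6% lower) and at 68801155 with 10.3 (77.9% lower). The deletion summit lay 21 bp from the first WT summit and the rescue summit 67 bp from the second. Deletion and rescue thus each matched a different WT summit. With a matching distance of 1000 bp they form 1 site called in all 3 lists.

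P-cadherin (CDH3, 68645310 to 68733771) lies next to CDH1 on chromosome 16 and belongs to the same junctions. A summit inside it was found in ORC2 deletion at 68704430 (13.0; 73.0% lower) and in WT at 68704425 (11.1; 81.3% lower), 5 bp apart. The rescue list had none in or near the gene, its nearest summit lying 52787 bp outside. A further summit at 68707538 (7.12; 44.0% lower) stood in ORC2 deletion alone.

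Each of the other cadherins with a summit in any list had at least 1 in ORC2 deletion. CDH5 and CDH6 also had rescue and WT summits. R-cadherin (CDH4, chromosome 20, 61252261 to 61940617), a cadherin of neurons and retina, had 1 summit over its 688357 bp, in ORC2 deletion at 61263402 (11.2; 66.0% lower). From this deletion summit, the nearest summit was 747410 bp away in rescue and 1038581 bp away in WT. Measured from the gene, the nearest lay 70195 bp outside in rescue and 361366 bp outside in WT. OB-cadherin (CDH11, chromosome 16, 64943753 to 65123744), of mesenchymal cells and osteoblasts, had 2 summits in ORC2 deletion and 0 in rescue and WT. The first lay inside the gene at 65118290 (3.38; 12% lower) and the second 3310 bp outside at 65127054 (7.30; 45.1% lower).

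VE-cadherin (CDH5, chromosome 16, 66366691 to 66404784), the cadherin of endothelium, had flanking summits in all 3 lists. The site above its upper end had values of 28.1 at 66406817 in ORC2 deletion (95.2% lower), 15.3 at 66406809 in rescue (88.4%) and 5.29 at 66406741 in WT (40.7%). The site below the gene had values of 11 at 66357710 in deletion, 5.83 at 66357493 in rescue and 5.75 at 66357732 in WT. Between them, at 66382964 inside the gene, only ORC2 deletion had a summit, with a value of 2.6 (5.13% lower).

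K-cadherin (CDH6, chromosome 5, 31193686 to 31329146), known from kidney, was the 1 gene of the 46 with both an up and a down region. ORC2 deletion had its summit inside the gene at 31270387 (4.05; 18.5% lower). Rescue had its summit at 31186985 (8.99; 67.5% lower) and WT at 31186738 (4.43; 30.5% lower), about 7 kb below the gene, and the deletion list had none there. N-cadherin (CDH2) and CDH8 had no summit in any list over 244252 and 389189 bp. A deletion summit lay 12328 bp outside CDH2, just beyond the 10 kb limit, and the nearest summit to CDH8 was a rescue summit 90317 bp away.

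Of the catenins, alpha-catenin (CTNNA1, chromosome 5), the link to actin, had a site at 138790012 in ORC2 deletion (19.5; 87.9% lower), at 138790032 in rescue (18.1; 92.3%) and at 138790106 in WT (3.36; 18.6%). A further site had summits at 138825305 in deletion (10.9) and 138825338 in WT (4.33), and rescue had none. Both lie inside the gene.

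Delta-catenin (CTNND1, or p120, chromosome 11, 57761802 to 57819540), which steadies cadherins at the membrane, had 4 summits in ORC2 deletion, 2 in rescue and 1 in WT. The shared site stood at 57800748 in deletion (10.3; 62% lower), 57800960 in rescue (13.6; 85.1%) and 57800938 in WT (14.7; 90.1%). The other 3 deletion summits, at 57751902 (6.0), 57756997 (5.30) and 57799170 (2.91), are up regions, the most at any of the 46 genes. The first lay 9900 bp outside CTNND1, inside the neighbouring BTBD18, and the second 4805 bp outside. Only the last lay inside CTNND1. Rescue had 1 summit of its own at 57778843 (2.79; 9.10% lower).

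Claudin-1 (CLDN1, chromosome 3, 190305707 to 190322446), a sealing protein of tight junctions, had 1 site, just before its own start, in all 3 lists, at a place that the annotation also puts inside CLDN16. The summits were at 190322721 in ORC2 deletion (11.4; 67.0% lower), 190322615 in rescue (15.1; 88.1%) and 190322670 in WT (9.88; 76.0%). The RefSeq promoter table, which spans 250 bases before to 50 after a gene's start, holds promoters of 25 of the 46 genes. The core of the CTCF motif was searched there on both strands as CC, 3 bases of any kind, AG, 2 bases of any kind and GGC. Of 47 promoters of these 25 genes 4 held it, 8.51% (3.36 to 19.9), against 10.6% of all 35116 promoters.

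The 4 matches are shown so that the called and the uncalled starts can be compared, each as 30 bases along the gene's strand of GRCh38.p14 with the match in capitals.
CLDN1: gccctgaaaCCGCCAGGGGGCgctccccgg
ZEB1: ctccctggaCCGTTAGCCGGCgccgacgcc
ACTA2: tgtttatctCCCACAGGCGGCtgaaccgcc
CLDN7: ccaccctcgGCCGGCTTTAGGtcccagtgg
The CLDN1 stretch is chr3:190322503-190322532 (minus strand), and its match begins 77 bases before the start of transcription. The deletion summit lay 198 bp, the rescue summit 92 bp and the WT summit 147 bp from the match. The ZEB1 stretch is chr10:31319556-31319585 (plus strand). A deletion summit lay 235 bp from it, and the nearest rescue and WT summits were 34417 and 451042 bp away. The ACTA2 stretch is chr10:88952980-88953009 (minus strand), with a deletion summit 1128 bp away. The CLDN7 stretch is chr17:7263202-7263231 (minus strand), its match read on the opposite strand, and no list had a summit within 17 kb of it. The match was found at starts with a summit in every list and at starts with a summit in none.

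Over all promoters of the table, the motif letters stood in 37.7% of the 324 that held a summit of all 3 lists (32.6 to 43.0) and in 17.2% of the 798 with a deletion summit only (14.7 to 19.9). Promoters without a summit held them in 9.58% of cases (9.27 to 9.91). The looser CCCTC, on both strands, was found in 79.0% of the promoters with a summit of all 3 lists, 79.7% of those with a deletion summit only, 70.7% of those without a summit and 71.2% of all.

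The remaining tight junction genes carried few or no summits. Claudin-4 (CLDN4, chromosome 7, 73830996 to 73832690) had a deletion summit 9180 bp outside at 73841870 (3.84; 16.2% lower) and a rescue summit 7612 bp outside at 73840302 (3.21; 13.8%), 1568 bp apart, both inside the neighbouring METTL27. Claudin-7 (CLDN7), occludin (OCLN) and the scaffold protein ZO-1 (TJP1) had none. The nearest summit to TJP1 was 817637 bp away, in rescue.

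The epithelial regulators were mostly called alike. GRHL2 (chromosome 8), a factor that keeps E-cadherin and claudin genes active, had 1 site inside the gene, at 101632809 in ORC2 deletion (10.1; 60.9% lower), 101632566 in rescue (14.6; 87.2%) and 101632704 in WT (10.6; 79.2%). OVOL1, which restrains ZEB1, had 1 site about 7 kb below the gene, inside AP5B1, with values of 9.31 in deletion, 4.0 in rescue and 5.87 in WT. ESRP1 (chromosome 8, 94641174 to 94707466), the splicing factor of epithelial isoforms, differed. ORC2 deletion had a summit 195 bp outside its lower end at 94640979 (2.83; 6.80% lower), WT had a summit 6150 bp above its upper end at 94713616 (5.08; 38.2%), and rescue had none.

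Among the EMT transcription factors, ZEB1 (chromosome 10, 31318417 to 31529804), a repressor of E-cadherin, had 3 summits in ORC2 deletion, 1 in rescue and 0 in WT. The nearest WT summit lay 240814 bp outside the gene. The deletion summit at 31319330 (2.89; 7.48% lower) lay 114 bp past an annotated start of ZEB1 and inside the antisense gene ZEB1-AS1. The deletion summit at 31353777 (7.11; 43.9%) had a rescue summit at 31353993 (4.88; 32.7%), and the last, at 31468376 (3.61; 14.3%), stood alone.

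The SNAI genes were called alike in all 3 lists. SNAI1 (chromosome 20), or Snail, had 1 site below the gene, with values of 14.6 in ORC2 deletion (78.0% lower), 3.86 in rescue (21.2%) and 11.6 in WT (82.9%). SNAI2 (chromosome 8), or Slug, had 2 sites above its upper end. The nearer had values of 16.7 in deletion, 9.84 in rescue and 8.26 in WT, and the farther 25.4 in deletion, 12.3 in rescue and 15.9 in WT. TWIST1 had 1 summit, in rescue, 4510 bp outside the gene at 19122146 on chromosome 7 (2.12; 3.09% lower). ZEB2 and TWIST2 had none.

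Vimentin (VIM, chromosome 10, 17228241 to 17237593), the intermediate filament of mesenchymal cells, had a site 2467 bp past its start that ranked high in every list. Its values were 16.1 at 17230693 in ORC2 deletion (81.8% lower), 25.2 at 17230724 in rescue (96.6%) and 16.8 at 17230705 in WT (93.0%). ORC2 deletion had 2 further summits, at 17227579, 662 bp before the start (4.59; 23.4%), and at 17231340 (7.57; 46.9%). That position lies 616 bp from the rescue summit and 635 bp from the WT summit, so with matching at 1000 bp it would join the shared site.

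Smooth muscle actin (ACTA2, chromosome 10, 88935074 to 88991337) had 4 summits in ORC2 deletion, 3 in rescue and 3 in WT. The highest-ranked shared site, at the gene's lower end, lay at 88935346 in deletion (23.8; 92.6% lower), 88935114 in rescue (28.2; 97.4%) and 88935376 in WT (19.5; 95.2%). The site outside that end had values of 9.83 at 88932998 in deletion, 9.59 at 88932987 in rescue and 4.46 at 88932905 in WT. Near the upper end, where the annotation also places FAS, they were 19.3 at 88987006 in deletion, 6.35 at 88987051 in rescue and 4.95 at 88987012 in WT. The summit at 88951861 in ORC2 deletion (5.91; 34.9%) lay 912 bp past an annotated start and was the 1 unshared site. Transgelin (TAGLN), an actin-binding protein, and THY1, a surface protein of fibroblasts, had no summit in any list.

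The 8 collagens held 26 summits in ORC2 deletion, 16 in rescue and 16 in WT, at 27 sites, 12 of them in all 3 lists and 7 in deletion alone. Each of the 8 had at least 1 deletion summit without a WT summit (40.0% of all protein-coding genes), and 6 had an up region (30.7% of all genes). Several are long genes, such as COL4A2 with 205926 bp and COL5A1 with 203041 bp, against the median of 24170 bp. Summits were also dense there in every list. Per Mb they numbered 25.6 in deletion, 15.7 in rescue and 15.7 in WT. Near all protein-coding genes these were 14.4 in deletion, 9.63 in rescue and 8.79 in WT. At equal list lengths only COL1A1, COL4A2, COL6A3 and COL15A1 kept a deletion summit without a WT summit (17.2% of all genes). Collagen I is the main fibril of connective tissue. Its COL1A1 gene (chromosome 17, 50184101 to 50201631) held the highest value near the 46 genes in every list, 103 at 50200534 in ORC2 deletion (99.9% lower), 85.0 at 50200539 in rescue (99.8%) and 64.9 at 50200564 in WT (99.7%). A site 2 kb away inside the gene was called in ORC2 deletion at 50198536 (15.7; 80.8%) and in rescue at 50198583 (6.76; 51.4%), where WT had none. A pair below the gene consisted of a shared site, with values of 18.8 at 50178505 in deletion, 13.8 at 50178486 in rescue and 13.7 at 50178509 in WT, and a weak deletion summit at 50176874 (2.64; 5.47%).

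COL1A2 (chromosome 7) and COL3A1 (chromosome 2), which make the other chain of collagen I and collagen III, repeated the pattern of deletion and rescue without WT. In COL1A2 the site was at 94395720 in ORC2 deletion (4.60; 23.4% lower) and 94395799 in rescue (1.58; 0.923%). In COL3A1 it was at 188983729 in deletion (5.49; 31.4%) and 188983535 in rescue (3.11; 12.7%), and the nearest WT summit lay 130414 bp outside the gene. Both sites ranked in the lower part of the lists that called them. COL1A2 also had a shared site outside its upper end, with values of 11.4 at 94436326 in deletion, 8.79 at 94436288 in rescue and 7.85 at 94436402 in WT.

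COL4A1 and COL4A2 (chromosome 13), the neighbouring genes of basement membrane collagen, are annotated on opposite strands with their starts side by side. COL4A1 had 2 summits in ORC2 deletion, 1 in rescue and 2 in WT. Its shared site had values of 6.22 at 110222304 in deletion, 3.04 at 110222487 in rescue and 4.52 at 110222369 in WT, and a deletion summit at 110158087 (2.05; 1.68% lower) and a WT summit at 110168740 (1.32; 0.0578%) each stood alone near the bottom of their lists. COL4A2 had 4 summits in deletion, 2 in rescue and 2 in WT. The site at 110412394 had its deletion and WT summits on the same base, with 19.7 in deletion (88.1%), 9.01 in rescue (67.7%) and 3.02 in WT (13.8%). Deletion summits at 110320352 (2.06) and 110323559 (7.96; 49.3%), 13068 and 16275 bp past the start of COL4A2, had no partner. The last site had values of 9.07 at 110456084 in deletion, 2.16 at 110456161 in rescue and 9.64 at 110456135 in WT, so it stood near the bottom of the rescue list alone (3.65% lower).

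COL5A1 (chromosome 9, 134641803 to 134844843), a chain of the collagen V that seeds fibrils, had 6 summits in ORC2 deletion, 3 in rescue and 4 in WT, all inside the gene. At 134698539 the value was 14.7 in deletion (78.3% lower), 7.50 in rescue (57.7%) and 22.3 in WT (96.5%), the WT summit ranking highest. At 134689716 it was 15.3 in deletion (79.8%), 16.3 in rescue (90.0%) and 5.34 in WT (41.2%). Deletion and WT shared 2 sites, with values of 14 at 134739512 in deletion and 5.38 at 134739278 in WT, and of 3.44 at 134779016 in deletion and 1.75 at 134779226 in WT. Deletion and rescue shared 1, with 4.49 at 134660653 in deletion and 4.44 at 134660727 in rescue, and deletion alone had 134811723 (3.13; 10.1%).

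The strongest of the deletion-only sites lay in COL15A1 (chromosome 9, 98943907 to 99070787), a collagen of basement membranes. At 98989558 ORC2 deletion had a value of 19.6 (88.0% lower), and the nearest summits were 9611 bp away in rescue and 9408 bp away in WT. A neighbouring shared site had 24.3 at 98999116 in deletion (92.9%), 19.9 at 98999169 in rescue (93.8%) and 7.10 at 98998966 in WT (58.5%). A further shared site had 10.6 at 99000500 in deletion, 9.08 at 99000451 in rescue and 9.12 at 99000532 in WT. Deletion and WT without rescue shared the site at 98974953 in deletion (14.6) and 98974884 in WT (5.51). COL15A1 thus had 2 sites in all 3 lists, 1 missing from rescue and 1 in deletion alone. COL6A3 (chromosome 2, 237324018 to 237414164), of the beaded filaments, had the next, at 237322892, 1126 bp outside its lower end (14.5; 77.8%), with no rescue or WT summit within 87 kb. Its other 2 sites were in all 3 lists. The site inside the gene had 10.3 at 237410269 in deletion, 5.24 at 237410251 in rescue and 3.02 at 237410352 in WT, and the site before its start 17.2 at 237421618 in deletion, 10.7 at 237421570 in rescue and 9.82 at 237421617 in WT.

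**Figure D3:**
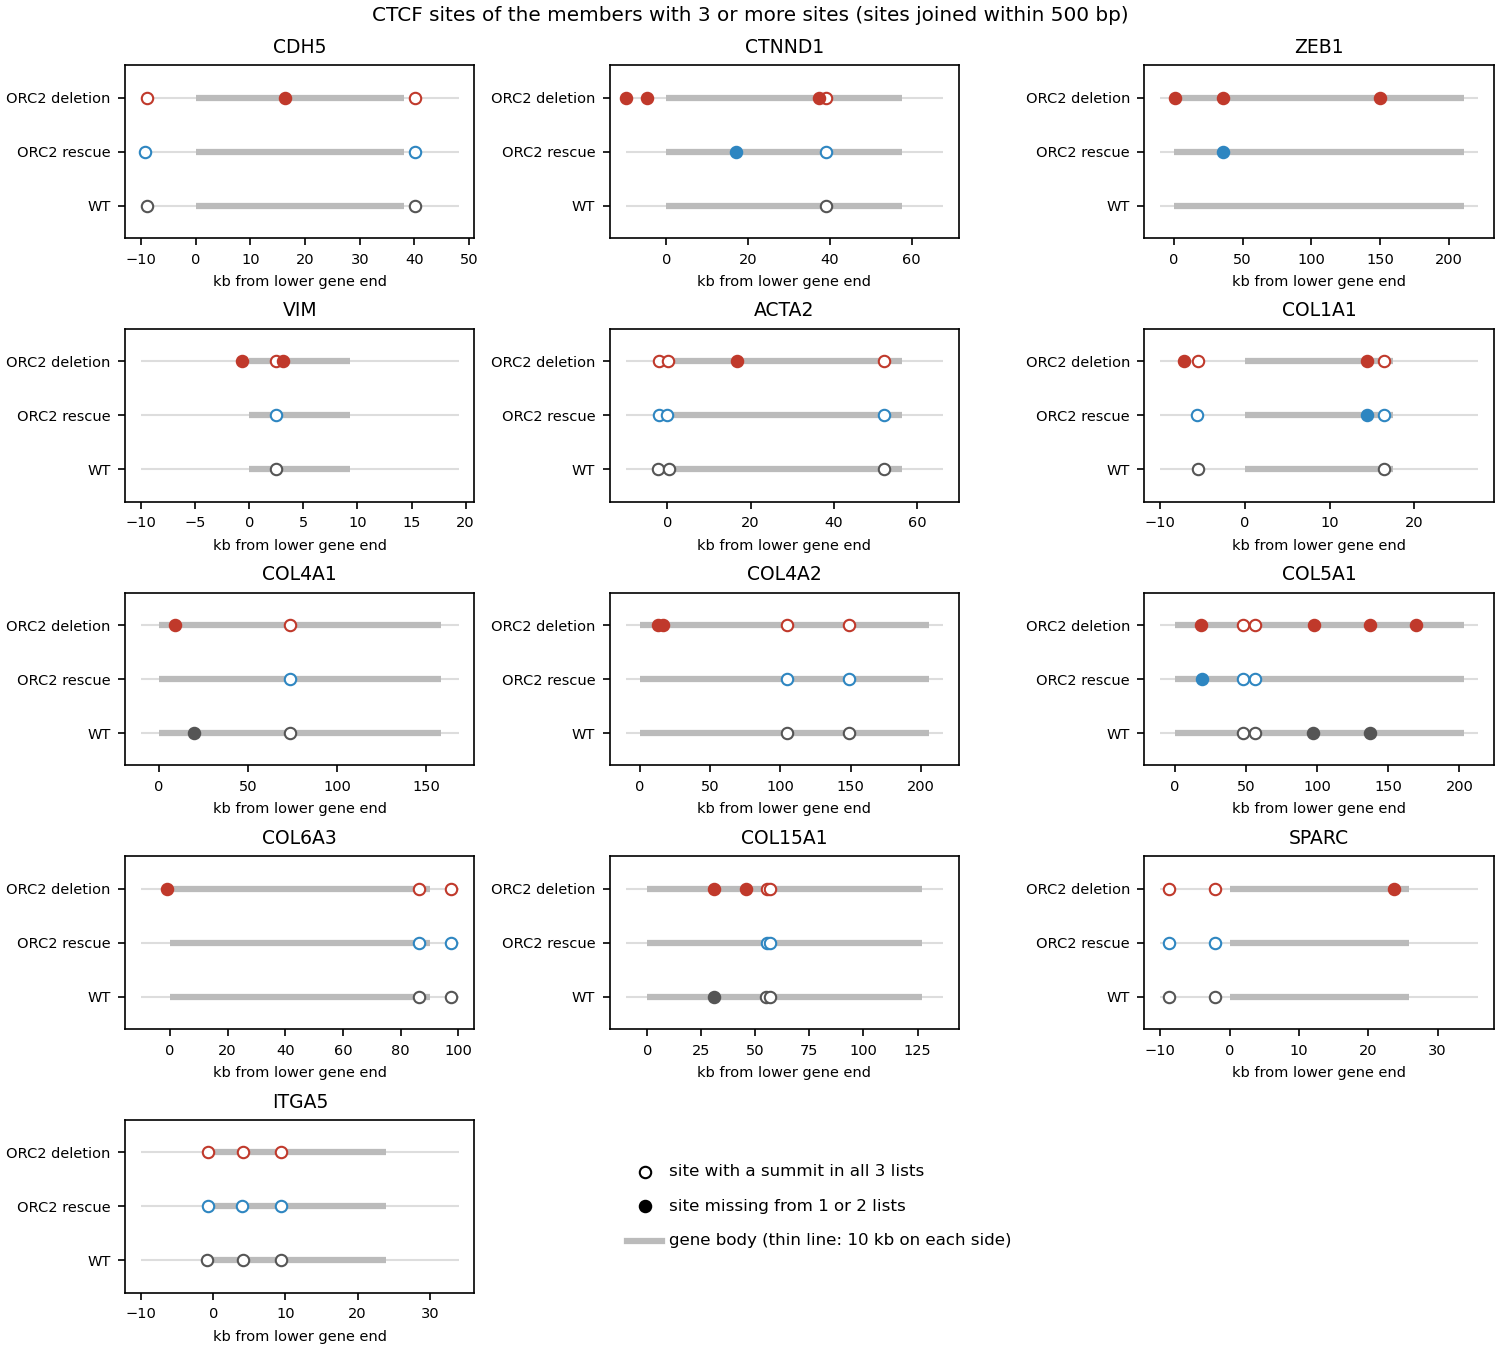
Positions of CTCF sites in the 13 genes with 3 or more sites, in kb from the gene's lower end (x axis), in the ORC2 deletion, rescue and WT lists (rows). Open circles are sites with a summit in all 3 lists, filled circles sites missing from at least 1, thick bars the gene body. ITGA5 shows open circles only, and the WT row of ZEB1 is empty.

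Of the other matrix genes, fibronectin (FN1, chromosome 2, 215360865 to 215436068), an adhesive glycoprotein raised in EMT, had 1 summit, in ORC2 deletion at 215402118 (2.95; 8.46% lower). The nearest rescue and WT summits lay 18368 and 18425 bp outside the gene. SPARC (chromosome 5), a collagen-binding glycoprotein, had 2 shared sites below the gene. The farther had values of 28.5 at 151652317 in deletion (95.4%), 8.60 at 151652414 in rescue (65.2%) and 8.08 at 151652300 in WT (65.8%). The nearer had 26.5 at 151658960 in deletion (94.4%), 17.6 at 151659014 in rescue (91.7%) and 12.6 at 151659019 in WT (85.7%). A deletion summit at 151684842 inside SPARC (3.05; 9.36%) had no partner. Periostin (POSTN) and the small proteoglycans decorin (DCN) and lumican (LUM) had none, with no summit within 115 kb.

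Each of the 3 matrix enzymes had an up region, as did 30.7% of all protein-coding genes. The crosslinking enzyme LOX (chromosome 5) had 1 summit, in ORC2 deletion at 122076248 (3.16; 10.3% lower), 926 bp past an annotated start. MMP2 (chromosome 16), a gelatinase, had 2, in deletion only, at 55471807 (2.12; 2.26%) and 55501881 (3.25; 10.9%). MMP9 (chromosome 20, 46008908 to 46016561), the other gelatinase, had a strong site inside the gene in every list, 47.6 at 46014094 in deletion (98.8%), 24.5 at 46014121 in rescue (96.3%) and 19.7 at 46014080 in WT (95.3%). Above the gene, inside SLC12A5, ORC2 deletion had a summit at 46023190 (13.9; 75.9%) and rescue one at 46022763 (3.48; 17.2%), 427 bp apart. The authors list the deletion summit as an up region, whereas joining within 500 bp makes it a site of both lists.

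Among the integrins, which bind fibronectin and collagen, ITGA5 (chromosome 12) had 3 summits in every list. At the middle site the values were 27.2 at 54399346 in ORC2 deletion (94.8% lower), 18.2 at 54399277 in rescue (92.5%) and 6.91 at 54399368 in WT (56.7%). The other 2 sites had values of 14.5 and 15.7 in deletion, 6.89 and 6.87 in rescue, and 7.07 and 6.79 in WT. ITGB1, its partner, had no summit, the nearest being a WT summit 22769 bp away. ITGA5, CLDN1, GRHL2, OVOL1, SNAI1 and SNAI2 were the 6 genes whose sites were all called in all 3 lists. The share of all protein-coding genes with this pattern was not computed.

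Genes with summits in ORC2 deletion alone were CDH4, CDH11, FN1, LOX and MMP2, 5 of 46, where 8.75% of all protein-coding genes had this pattern. With CLDN4, ZEB1 and COL3A1, 8 genes had a deletion summit and none in WT (15.2% of all genes). The 13 genes without a summit, from CLDN7 with 3311 bp to CDH8, had their nearest summit of any list between 12328 and 817637 bp away.

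Of the 28 deletion-only sites, 25 lay below the median of the deletion list, as did 8391 of all 9502 deletion-only sites. Their values ran from 2.05 to 19.6 with a median of 3.50, and the median site had 13.2% of the list below it. Over all 9502 deletion-only sites of the lists, this median was 21.3%. The 32 sites of all 3 lists had a median deletion value of 15.9, with 81.4% of the list below it, and over all 14115 such sites this median was 73.9%. Of the 34 sites with a deletion and no WT summit, 5 lay above the median of the deletion list: those in or near COL15A1, COL1A1, COL6A3, MMP9 and CDH4. Of the 6 sites of deletion and rescue without WT, 4 lay below that median, as did 2625 of all 4511 such sites. The 2 sites of rescue and WT without deletion, at CDH1 and CDH6, had rescue values of 9.43 and 8.99 and WT values of 10.3 and 4.43.

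**Figure D4:**
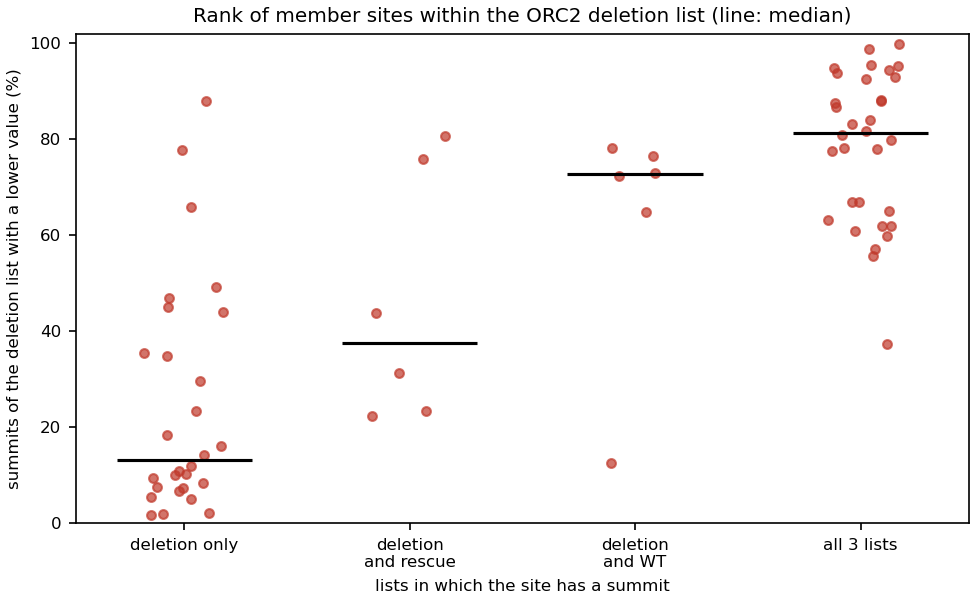
Rank of each site near the 46 genes that has a deletion summit, as the percent of the ORC2 deletion list with a lower value (y axis), by the lists that call the site (x axis); lines are medians. The deletion-only sites have a median of 13.2% and the sites of all 3 lists one of 81.4%.

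Position relative to the start of a gene was compared after the values were seen. For the 25 genes with an annotated strand, 5 of 44 sites lay within 1 kb of a start of their own gene. They were the site of CLDN1, 1 of 20 sites of all 3 lists, and the deletion-only sites of ZEB1, VIM, ACTA2 and LOX, 4 of 16. Over all sites, 13.0% of deletion-only sites (12.3 to 13.7) and 10.2% of sites of all 3 lists (9.71 to 10.7) lay within 1 kb of a start in the table. That measure takes a start of any gene, so these shares and the counts for the 25 genes are not alike. Inside gene bodies lay 51 of the 79 sites.

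A wider list of 125 related genes, with further cadherins, junction, matrix and integrin genes, served for comparison. An up region was found at 43 of them, 34.4% (26.6 to 43.1), an interval that holds the 30.7% of all genes. Its up regions numbered 3.50 per Mb, against 4.41 per Mb near all protein-coding genes. By role, an up region was found at 9 of its 15 collagens, 6 of 10 integrins, 6 of 15 matrix enzymes, 7 of 18 other matrix genes and 4 of 11 EMT regulators. It was found at 5 of 21 junction genes, 2 of 9 epithelial regulators, 3 of 14 cadherins and 1 of 12 cytoskeletal and surface genes. By the value of the deletion summit, the first 8 were COL5A2 (12.4), CTNNA3 (10.6), COL12A1 (10.3), SNAI3 (9.80), ID2 (9.61), CTNNA2 (9.15), COL4A6 (7.93) and ITGA3 (7.87). COL5A2, the second chain of collagen V, had 5 up regions, with 7 summits in ORC2 deletion, 2 in rescue and 2 in WT. Deletion over WT was 1.64 over this list, with 226 summits in deletion and 138 in WT. CTNNA2, an alpha-catenin of neurons, had 3 summits in deletion, 6 in rescue and 0 in WT.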

How the data were processed

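CTCF and IgG CUT&RUN libraries were summarised by the authors as summit lists. Per the submitters' processing notes, the tools were Bowtie2 2.2.9, FastQC 0.11.5, SAMtools 1.12 and MACS2 with no version, and the build was hg38. How peaks were called, and whether IgG served as a control, is not given in the sources used here. Each deposited list holds 1 base per summit and a value read as the −log10 of q, unscaled between lists. The authors' lists of up and down regions hold coordinates without values. A CTCF list was treated as pooling the replicates of its genotype.

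The members and lists were chosen with earlier results of these data known. Summits (1-based) were matched and joined within 500 bp and assigned to RefSeq gene bodies (GRCh38.p14) with 10 kb on each side. Intervals are 95% Wilson for shares, exact Poisson for counts and exact conditional binomial for ratios. Every site is given for genes whose sites differ between lists, other genes are summarised, and the first 8 genes of the wider list with an up region are named by value. Some results are not reported here. The promoter table gave starts and strand for 25 genes. Counting was tested on simulated data. The work used SciPy 1.17.1, pandas 2.3.3, NumPy 2.4.6, matplotlib 3.10.9 and Python 3.11.15.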

Additional observations from a re-analysis of the deposited data

How the results depend on the processing

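Of 99 values recomputed under alternatives, 70 stayed close (counts within 1.5 times, other values within their counting interval), and 29 moved further. Rescue over WT, 1.02 as reported, had an interval on both sides of 1 and was below 1 within gene bodies alone (0.962) and at equal list lengths (0.952), and 1 with 5 kb on each side and with a −log10 q of at least 5. With a −log10 q of at least 10, deletion over WT was 2.92, summits were found at 21 genes in deletion, 15 in rescue and 12 in WT, a WT summit was absent from deletion at 1 gene, and 23.1% of sites were in all 3 lists. With at least 5, that WT count was 2. Values are not scaled between lists, and the median value was 8.06 in the whole deletion list and 6.18 in the WT list. A common cutoff thus keeps a larger part of the deletion list. The ratio over whole lists at these cutoffs was not computed. At equal list lengths, deletion over WT was 1.10, 10 genes had a deletion summit absent from WT, and 53.6% of sites were in all 3 lists. Whole lists are equally long there by construction. Within gene bodies alone, 17 genes had a rescue summit and 15 a WT summit, 2 had a WT summit absent from deletion and 0 a down region. With 5 kb on each side, those last counts were 2 and 0, and with 50 kb the down count was 2. Around annotated starts, possible for 25 genes, 7 had a summit in deletion, 5 in rescue and 4 in WT, 5 had a deletion summit absent from WT, 0 the reverse, 5 an up region and 0 a down region; fewer genes enter there. With matching within 50 bp, 19 genes had a WT summit absent from deletion and 9.57% of sites were in all 3 lists, and within 100 bp these were 10 genes and 26.9%. CCCTC stood in 83.0% of the promoters of these genes. The cause of the other moves was not tested. For the gene counts and site shares above, matching values over all genes and all sites at the changed settings are mostly lacking. The exception is a deletion summit absent from WT at equal list lengths, found at 17.2% of all protein-coding genes. Whether the other counts and shares moved more here than over all genes and sites therefore cannot be told.

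No paired analysis was possible because the CTCF summits come as a single list per genotype without replicate names, which also leaves no replicate to leave out. Unknown depth limits every absence: a summit missing from a list is one not called there.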
